A study of Mus musculus with 7 samples.

Results

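Whole coronal hemisections of the mouse brain were compared between a posterior and an anterior position through the anterior thalamus, first over all cells and then within 3 classes of cells. Members were all 272026 segmented cells of the 3 posterior and the 2 anterior sections, of 384076 cells in the 7 sections of the series. The animals were wild type with no treatment, and the sections were fresh-frozen and 10 µm thick, cut at bregma -0.58 mm (anterior replicates 1 and 2) or bregma -0.94 mm (posterior replicates 1, 3 and 4). Transcripts of 297 genes were counted in situ with Xenium, which images single RNA molecules of a chosen set of genes in the tissue itself and gives each to a cell outlined by image segmentation. Nothing in the labels ties a section to an animal, so p-values measure only section-to-section spread, part of which may be technical.

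Cells were sorted into gates by raw counts of 4 transmitter genes. The VGLUT1 gate took cells with at least 5 transcripts of Slc17a7 and at most 2 of Slc17a6, and held 82838 cells. The GAD gate took cells with Gad1 and Gad2 summing to at least 5 and Slc17a6 and Slc17a7 to at most 5, and held 66191 cells. The transmitter-low gate took cells in which the 4 genes summed to at most 2, and held 57672 cells. Another 66361 cells, among them most of the Slc17a6 transcripts of thalamic relay neurons, met no gate, and 1036 cells met both the VGLUT1 and the GAD gate and were counted in each.

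Slc17a7 encodes VGLUT1, the vesicular glutamate transporter of cortical and hippocampal excitatory neurons, whereas most thalamic relay neurons use VGLUT2, encoded by Slc17a6. Gad1 and Gad2 encode the enzymes that make GABA, the transmitter of cortical interneurons, striatal projection neurons and the thalamic reticular nucleus. Glial, vascular and meningeal cells express little of any of these genes. A coronal section moved backwards through this level of the brain passes out of the main body of the striatum and into the dorsal hippocampus, while cortex lies above both.

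The 5 sections held between 50169 and 60720 cells and between 17438577 and 22033091 transcripts each, with 278 to 390 transcripts in the median cell. Control probes, which match no transcript, gave 0.379 counts per cell in anterior replicate 2 and 0.749 to 0.870 in the other 4 sections. Both anterior sections and posterior replicate 1 shared a slide, and posterior replicates 3 and 4 had one to themselves. Of the cell barcodes, 4 occurred in more than 1 of the 5 sections.

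Marker lists that did not define the gates differed between them. Genes of cortical layer identity made up 5.57% to 6.26% of transcripts in the VGLUT1 gate, against 3.74% to 4.07% in the GAD gate and 2.12% to 2.47% in the transmitter-low gate. Striatal projection genes made up 8.27% to 10.5% in the GAD gate, against 2.96% to 3.40% in the VGLUT1 gate. In the transmitter-low gate, oligodendrocyte-lineage genes made up 5.70% to 8.32%, endothelial genes 5.21% to 5.93% and genes of meningeal fibroblasts 6.43% to 8.57%. The same lists reached at most 2.21%, 1.84% and 0.90% in the other gates. Astrocyte genes were less selective, at 7.43% to 8.60% in the transmitter-low gate and 4.02% to 5.11% in the others. Segmentation can assign a transcript to an adjacent cell, and no marker measured here was at 0 in any gate.

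The share of cells in each gate did not separate the positions. The VGLUT1 gate held 29.6% and 29.1% of cells in anterior replicates 1 and 2, and 32.8%, 27.9% and 33.4% in posterior replicates 1, 3 and 4. Posterior replicate 3 lay below both anterior sections and the other posterior sections above them. The GAD gate held 23.6% and 27.9% of anterior cells and 20.4%, 27.1% and 21.8% of posterior cells. The transmitter-low gate held 24.3% and 17.5% of anterior cells and 21.7%, 23.3% and 19.0% of posterior cells. The differences, posterior minus anterior, were 1.998, -2.65 and 0.484 percentage points, with two-sided exact permutation p of 0.6, 0.4 and 1 (0.9, 0.9 and 1 after Benjamini-Hochberg adjustment over the 3 gates). With 2 sections against 3 the smallest p this test allows is 0.2. Thinning to 150 transcripts left out the 19665 anterior and 27734 posterior cells that held fewer, from 10.7% of posterior replicate 4 to 24.7% of anterior replicate 1. Of the remaining deeper cells the VGLUT1 gate held 23.6% in the anterior and 23.4% in the posterior sections, and the difference turned to -0.182 points. The transmitter-low difference turned to -2.91 points without anterior replicate 2 and to -0.489 without posterior replicate 3.

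**Figure D1:**
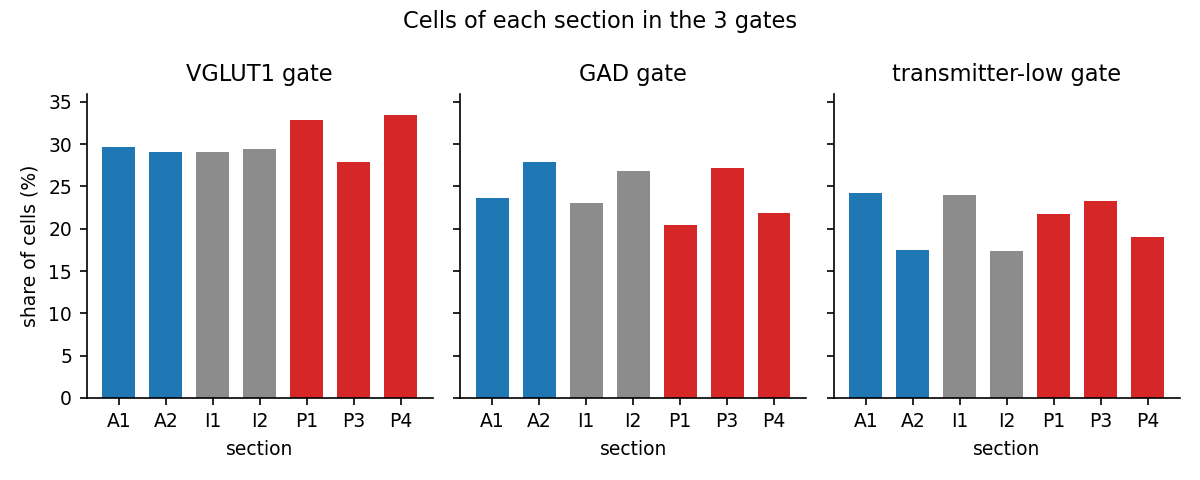
Share of cells (%) of each section that met the VGLUT1, GAD or transmitter-low gate, for anterior (A, blue), intermediate (I, grey) and posterior (P, red) sections named by replicate number. The VGLUT1 share was 27.9% in P3 against 32.8% and 33.4% in P1 and P4, so the posterior sections spread to both sides of the anterior ones.

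Over all cells no gene passed the test. Of the 10 measured hippocampal genes 8 lay above 0 on the log2 scale of posterior minus anterior (median 0.17), and of the 7 measured striatal genes 5 lay below it (median -0.20), against a median of 0.00 over all genes. With 1 section left out, from 6 to 10 hippocampal and from 1 to 2 striatal genes lay above 0. Cabp7, which encodes a calcium-binding protein and is on the hippocampal list, stood at 2546 and 2380 CPM (counts scaled to 1000000 per section) in the anterior sections and at 4597, 4147 and 3274 in posterior replicates 1, 3 and 4. All posterior values were above both anterior values, a 1.63-fold ratio of means. Ppp1r1b, a dopamine-regulated inhibitor of protein phosphatase and a classical striatal marker, stood at 11691 and 11107 in the anterior and 8912, 8338 and 7940 in the posterior sections. It was 1.36-fold higher in the anterior sections. Pcp4, a small regulator of calmodulin, stood at 14593 and 15386 in the anterior and 12210, 10416 and 11772 in the posterior sections. These groups did not overlap either. The same held for Bcl11b and Foxp1, transcription factors of striatal projection and cortical neurons, for Syt6, a synaptotagmin of deep cortical layers, and for Myl4, a myosin light chain, all lower in the posterior sections. On the higher side stood Bdnf, the neurotrophin, Cpne4, a copine that binds membranes in response to calcium, and Shisa6, an auxiliary subunit of AMPA receptors.

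The log2 differences over all cells, posterior minus anterior with SE, were 0.70 ± 0.14 for Cabp7, 0.63 ± 0.18 for Shisa6, 0.37 ± 0.09 for Cpne4 and 0.28 ± 0.07 for Bdnf. They were -0.44 ± 0.08 for Ppp1r1b, -0.43 ± 0.12 for Syt6, -0.39 ± 0.09 for Pcp4, -0.33 ± 0.10 for Myl4, -0.29 ± 0.07 for Bcl11b and -0.27 ± 0.07 for Foxp1. None of the 297 genes tested passed a Benjamini-Hochberg adjusted p of 0.05 with edgeR's quasi-likelihood test on section sums, and the smallest adjusted p was 0.225 (Ppp1r1b). At an unadjusted p of 0.05, 26 genes passed (8.75%), 11 higher (3.70%) and 15 lower (5.05%) in the posterior sections. Scaled by number of cells in place of TMM, which moved the median of all genes from 0.00 to 0.15, the split was 22 higher and 1 lower. Levels did not overlap between the positions for 80 genes (26.9%), of which 35 were higher (11.8%) and 45 lower (15.2%) in the posterior sections. Of the 10 ways to split 5 sections into 2 and 3, a share of 0.2 leaves no overlap for any given gene, here and in each gate below. DESeq2 on the same sums called the 10 genes just listed, 3.37% of those tested, 4 higher (1.35%) and 6 lower (2.02%). Because no gene passed the main test, the genes named here and below were chosen after their values were seen. Most were taken from the genes without overlap, so their lack of overlap follows from the choice. A sum over cells does not tell fewer cells of a type from less RNA per cell.

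Single sections moved these counts. Without posterior replicate 3, edgeR called 5 genes over all cells, C1ql2, Rab37 and Ramp3 higher and Ppp1r1b and Syt6 lower in the posterior sections, and 43 genes had an unadjusted p under 0.05. That number was 14 without posterior replicate 4, 15 without posterior replicate 1 and 16 without anterior replicate 2. On the slide that held both positions, posterior replicate 1 differed from the anterior sections by 0.90 for Cabp7, -0.36 for Ppp1r1b and -0.30 for Pcp4 on the log2 scale, the same direction as over both slides.

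Where these transcripts lay was read from the gates. Here the cells that met both the VGLUT1 and the GAD gate were taken out of each and put with the cells of no gate, together called the remaining cells. The VGLUT1 gate held 37.6% of all Cabp7 transcripts in the anterior sections and 58.1% in the posterior sections. The GAD gate held 67.6% and 62.1% of Ppp1r1b and 49.7% and 37.9% of Pcp4. Per cell of the whole section, Cabp7 went from 0.880 transcripts in the anterior to 1.58 in the posterior sections. Of the difference of 0.696, 0.557 lay in the level per cell within the VGLUT1 gate and 0.0407 in the share of cells in that gate. Ppp1r1b went from 4.07 to 3.32 transcripts per cell. Of that difference of -0.756, -0.269 came with the mean share of GAD cells and -0.391 with the level within them. For Pcp4 the difference was -0.828, with -0.241 in the share of GAD cells and -0.729 in their level, set against 0.254 in the level of the remaining cells. These parts moved with single sections. The GAD share part of Ppp1r1b ran from -0.494 to -0.0496 and the GAD level part from -0.617 to -0.153 with 1 section left out. For Pcp4 they ran from -0.451 to -0.0429 and from -0.908 to -0.562, whereas the VGLUT1 level part of Cabp7 ran from 0.465 to 0.656. The level part of Pcp4 in the remaining cells ran from 0.0247 to 0.550. The whole differences moved too, from -1.41 to -0.245 for Pcp4, from -0.986 to -0.526 for Ppp1r1b and from 0.570 to 0.782 for Cabp7. The GAD share parts nearest 0 were those without anterior replicate 2, and the GAD shares themselves overlapped between the positions. The division is arithmetic on group means with no test.

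The VGLUT1 gate held the steepest position differences. Trp73, a member of the p53 family of transcription factors, stood at 12.3 and 13.0 CPM in the anterior sections and at 63.2, 60.4 and 19.98 in posterior replicates 1, 3 and 4. These were the lowest levels of the 6 genes given here. Trp73 is on the ependymal list, of which 2 of 3 members lay below 0 on the log2 scale in this gate. Cabp7 stood at 2769 and 2234 in the anterior and 7027, 6307 and 4130 in the posterior sections. Shisa6 stood at 427 and 355 in the anterior and 1101, 1170 and 513 in the posterior sections. For all 3 genes posterior replicate 4 lay closer to the anterior values than the other posterior sections did, yet above them. Npy2r, a neuropeptide Y receptor on the list of interneuron genes, followed the same order, with 119 and 139 in the anterior and 436, 387 and 166 in the posterior sections. C1ql2, a secreted synaptic protein of dentate granule cells, had its highest value in posterior replicate 1, with 74.7 and 68.1 in the anterior and 241, 139 and 116 in the posterior sections. Prox1, the transcription factor that marks dentate granule cells, stood at 1191 and 1149 in the anterior and 1892, 1440 and 1393 in the posterior sections. None of these 6 genes overlapped between positions, which for all but Prox1 was a condition of being named. The ratios of means were 3.77 for Trp73, 2.56 for Npy2r, 2.37 for Shisa6, 2.33 for Cabp7, 2.31 for C1ql2 and 1.35 for Prox1.

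On the lower side of the VGLUT1 gate, Myl4 stood at 2682 and 2527 CPM in the anterior and 1945, 1803 and 1799 in the posterior sections. It was 1.41-fold higher in the anterior sections, and the values within each position lay close together. Gng13, a G-protein subunit, and Kcnh5, a voltage-gated potassium channel, were lower in every posterior section as well, by -0.33 ± 0.08 and -0.25 ± 0.06 on the log2 scale.

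**Figure D2:**
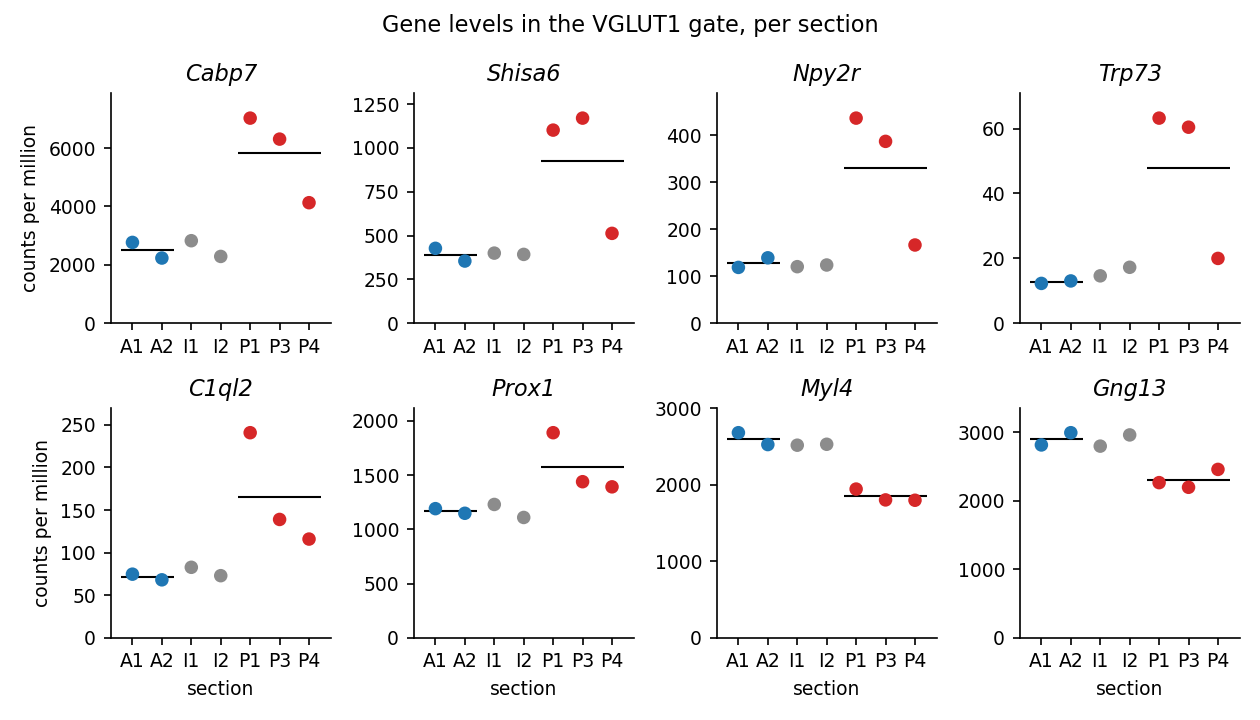
CPM in the VGLUT1 gate for 8 genes, 1 point per section (A anterior, I intermediate, P posterior, with replicate numbers), with horizontal bars at the means of the anterior and posterior sections. Values of the intermediate sections were scaled together with all 7 sections. Cabp7 ran from 2234 to 2769 in the anterior and from 4130 to 7027 in the posterior sections, and Myl4 from 2527 to 2682 and from 1799 to 1945.

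In log2 terms the differences in the VGLUT1 gate were 1.92 ± 0.46 for Trp73, 1.35 ± 0.37 for Npy2r, 1.25 ± 0.32 for Shisa6, 1.22 ± 0.21 for Cabp7, 1.21 ± 0.30 for C1ql2 and 0.43 ± 0.14 for Prox1. The difference was -0.49 ± 0.08 for Myl4. Again no gene passed with edgeR's quasi-likelihood test, here over the 293 genes that did not define the gates. The smallest adjusted p, 0.0522, belonged to Myl4 and Cabp7. An unadjusted p under 0.05 was found for 51 genes (17.4%), 24 higher (8.19%) and 27 lower (9.22%). Scaling moved that split, to 27 higher and 16 lower by library size and to 50 higher and 1 lower by number of cells. After TMM the positions did not overlap for 86 genes (29.4%), 38 higher (13.0%) and 48 lower (16.4%). DESeq2 called 21 genes (7.17%), 9 higher (3.07%) and 12 lower (4.10%), Cabp7, Shisa6, Cpne4, Cpne6, Orai2 and Mdga1 among the former and Myl4, Gng13, Kcnh5, Tox, Foxp2, Syt6, Hs3st2, Pcp4 and Ppp1r1b among the latter. DESeq2's own filter on low counts left some genes without an adjusted p, among them Trp73, Npy2r, C1ql2 and Fibcd1. Its shares are thus of all 293 genes and not of those it could call.

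The calls in this gate turned on single sections and on the slide. Without posterior replicate 4, edgeR called 15 genes, 13 of them higher, including all 6 genes described above and Cpne4, Cpne6, Mdga1 and Prdm8, and 2 lower, Myl4 and Gng13. Without anterior replicate 1 it called 2 other genes, Cbln1 and Fmod, and without posterior replicate 1 only Cabp7. The number of genes with an unadjusted p under 0.05 was 24 without posterior replicate 3 and 31 without posterior replicate 1. With slide as a term, which leaves posterior replicate 1 against the 2 anterior sections, edgeR called 5 genes, all higher: Cabp7, Trp73, Npy2r, C1ql2 and Prox1, at log2 differences of 1.49, 2.32, 1.76, 1.75 and 0.69. The slide-term difference of Myl4 was -0.42, with an adjusted p of 0.26.

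Strongly labelled cells were found in the VGLUT1 gate of the posterior sections. Cells of the VGLUT1 gate with at least 20 Cabp7 transcripts numbered 14 and 5 in the anterior sections, 0.089% and 0.031% of the gate. In posterior replicates 1, 3 and 4 they numbered 861, 647 and 252, or 5.003% (95% exact binomial interval 4.68 to 5.34), 3.82% (3.53 to 4.12) and 1.50% (1.33 to 1.70). These intervals cover counting error only. Every posterior section thus held many more such cells than either anterior section, and posterior replicate 4 held the fewest of the 3. The share was at most 0.150% in the GAD gate and 0.0439% in the transmitter-low gate of any section. In posterior replicates 1, 3 and 4, 3, 4 and 4 of the Cabp7-high cells met both the VGLUT1 and the GAD gate, where the GAD gate held 16, 16 and 10 in all. With cells thinned to 200 transcripts (shallower cells left out) and a threshold of 10, the shares in the VGLUT1 gate were 0.0974% and 0.0262% in the anterior and 3.79%, 3.18% and 1.45% in the posterior sections. The thresholds were chosen after the values were seen.

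Within the posterior sections, the Cabp7-high cells carried other genes of the same group. Trp73 was 18.8- to 27.99-fold, Shisa6 9.15- to 14.9-fold and Npy2r 4.30- to 17.7-fold more abundant in them than in the other cells of the gate, with the lowest Npy2r ratio in posterior replicate 4. Cpne4 was 2.85- to 5.71-fold and Orai2, a store-operated calcium channel subunit, 3.90- to 4.55-fold more abundant. Strip2, another hippocampal-list gene, was 5.65- and 5.75-fold more abundant in posterior replicates 1 and 3 and 1.42-fold in replicate 4. Against this, Igfbp6 was 9.92- to 26.5-fold, Myl4 7.32- to 11.4-fold and Lamp5, a marker of upper cortical layers, 6.82- to 9.27-fold less abundant in the Cabp7-high cells. Wfs1, a marker of CA1 pyramidal cells, was 2.36- to 4.05-fold less abundant. Gfap, an astrocyte filament protein, was 3.73- to 8.87-fold more abundant in them. The median Cabp7-high cell held 653, 628 and 504 transcripts in posterior replicates 1, 3 and 4, against 455, 451 and 499 in the rest of the gate. Posterior replicate 4 thus differed in the number, depth and gene content of these cells from the other posterior sections.

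**Figure D3:**
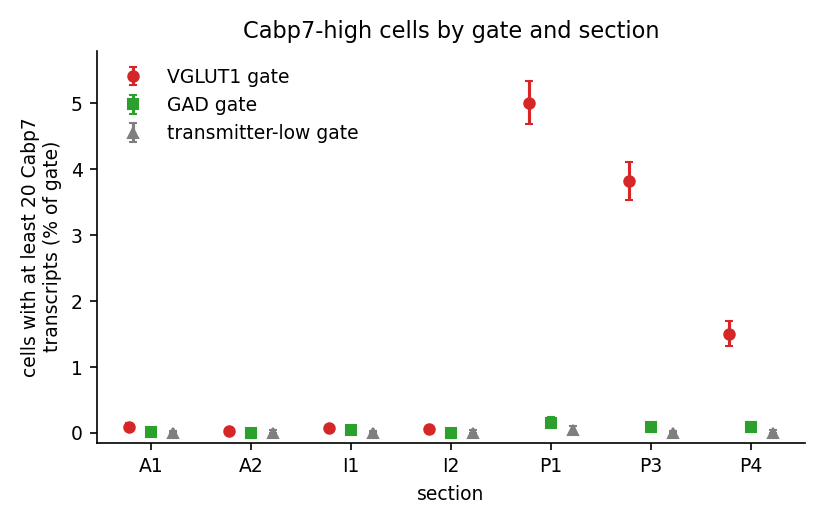
Share (%) of cells with at least 20 Cabp7 transcripts in each section (A anterior, I intermediate, P posterior, with replicate numbers) for the VGLUT1, GAD and transmitter-low gates, with 95% exact binomial intervals. In the VGLUT1 gate the share was 5.003%, 3.82% and 1.50% in the posterior sections and at most 0.089% in the anterior and intermediate sections.

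Shisa6 and Prox1 marked smaller sets. At least 10 Shisa6 transcripts were found in 137 and 153 cells of the VGLUT1 gate in posterior replicates 1 and 3, 0.796% and 0.903%, but in 2 cells of posterior replicate 4, 1 of anterior replicate 2 and 0 of 15802 in anterior replicate 1, which allows a share of up to 0.0190% (3 counts). For Shisa6 the posterior sections thus fell into a high pair and a low single one. At least 10 Prox1 transcripts were found in 0.367% and 0.502% of anterior and 2.33%, 1.10% and 1.11% of posterior cells of the gate. The Prox1-high posterior cells with fewer than 20 Cabp7 transcripts had 15.3- to 35.7-fold more C1ql2 than the other cells, most in posterior replicate 1. They also had 8.62- to 12.1-fold more Adarb2 and 5.71- to 16.8-fold more Vip, genes of interneurons that express Prox1 too, least in posterior replicate 1. Genes of granule cells and of interneurons were thus both high in this set. With all Cabp7-high and Prox1-high cells left out of the gate, an alternative chosen after the data were seen, edgeR again called no gene. The cells were removed for their Cabp7 or Prox1 counts, so the lower values of these genes follow from the choice, and the values are a description. The difference of Cabp7 was then 0.35, that of Shisa6 0.54, Npy2r 0.61, C1ql2 0.62, Trp73 0.86 and Prox1 0.16, against -0.42 for Myl4.

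By list, the VGLUT1 gate showed 9 of the 10 measured hippocampal genes above 0 and all 13 measured cortical layer genes (5 of 13 when scaled by number of cells) below 0 on the log2 scale of posterior minus anterior. The median was 0.25 for the hippocampal and -0.14 for the cortical list, against -0.02 over all genes, and no member passed edgeR's test. Beside Cabp7, C1ql2 and Prox1, the hippocampal list held Epha8 at 0.31, Cpne6 at 0.28, Bhlhe22 at 0.22, Fibcd1, a CA1 gene, at 0.21 and Neurod6, expressed by both pyramidal cells and cortical neurons, at -0.01, with a sign that turned in 10 of the other settings. The positions did not overlap for 5 of the 10 hippocampal genes, all higher in the posterior sections, where 13.0% of all genes did so, and for 6 of the 13 cortical genes, all lower, where 16.4% of all genes did so. Among the latter stood Syt6 at -0.29, Hs3st2 at -0.24, Foxp2, a layer 6 gene, at -0.23 and Rprm at -0.18. Differences within the cortical list were small and spanned -0.29 to -0.06. Scaled per cell in place of TMM, the median of all genes moved to 0.16 in this gate and that of the cortical list to 0.03, 0.12 below all genes. On that scale 8 of the 13 cortical genes lay above 0, Bcl11b among them, though each lay below the median of all genes, and all 10 hippocampal genes lay above that median. Up to 3 cortical genes lay above 0 when 1 section was left out. Axon guidance genes lay above 0 in 9 of 10 cases (median 0.17). Glial and vascular lists had medians from -0.17 (meningeal fibroblasts) to 0.10 (oligodendrocyte lineage), and their part in the other differences was not tested.

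The GAD gate mixed striatal projection neurons, interneurons and other GABAergic cells. The median size of its differences was 0.12 on the log2 scale, against 0.10 in the VGLUT1 gate, while 1 of its genes and 5 of the VGLUT1 gate differed by at least 1. Ror1, a receptor tyrosine kinase-like protein, stood at 492 and 527 CPM in the anterior and 357, 291 and 302 in the posterior sections. Pcp4 stood at 25892 and 28031 in the anterior and 20900, 17000 and 16548 in the posterior sections. In both, posterior replicate 1 lay nearest to the anterior values, and the groups did not overlap. Pdyn, the precursor of dynorphin, stood at 2951 and 2216 in the anterior and 3550, 3468 and 3922 in the posterior sections. Tmem132d, a transmembrane protein of neurons, stood at 2072 and 1761 in the anterior and 2490, 2556 and 2905 in the posterior sections. Both were higher in every posterior section. Ppp1r1b stood at 28400 and 27267 in the anterior sections, 26463 in posterior replicate 1, and 18404 and 21971 in posterior replicates 3 and 4. It was thus close to the anterior values in the posterior section that shared their slide, with a slide-term difference of -0.07 against -0.32 ± 0.16 in the main fit.

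In log2 terms the differences in the GAD gate were -0.69 ± 0.13 for Ror1, -0.57 ± 0.13 for Pcp4, -0.56 ± 0.13 for Pou3f1, a POU-domain transcription factor, and -0.47 ± 0.11 for Cdh9, a cadherin. They were 0.82 ± 0.26 for Spp1, the secreted protein osteopontin, 0.50 ± 0.14 for Pdyn, 0.47 ± 0.12 for Tmem132d, 0.43 ± 0.14 for Col6a1, 0.41 ± 0.14 for Wfs1 and 0.28 ± 0.09 for Nr2f2, a nuclear receptor of the COUP family. None of 293 genes passed edgeR's quasi-likelihood test (smallest adjusted p 0.363), while 32 had an unadjusted p under 0.05 (10.9%), 12 higher (4.10%) and 20 lower (6.83%). The split was 17 higher and 14 lower by library size and 26 higher and 5 lower by number of cells. After TMM 98 genes did not overlap between the positions (33.4%), 50 higher (17.1%) and 48 lower (16.4%). DESeq2 called 6 genes (2.05%): Ror1, Pcp4, Pou3f1, Cdh9 and Gm19410 lower (1.71%) and Tmem132d higher (0.341%) in the posterior sections. Without posterior replicate 3, edgeR called Pln and Ramp3, both higher. Pln, the calcium-pump inhibitor phospholamban, stood at 242 and 156 in the anterior sections and at 816, 142 and 705 in posterior replicates 1, 3 and 4, so replicate 3 lay below both anterior sections. The number of genes with an unadjusted p under 0.05 was 53 without posterior replicate 3, 10 without posterior replicate 4 and 7 without anterior replicate 2.

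Striatal genes within the GAD gate went both ways. Of the 7 measured, 4 lay below 0, Foxp1 at -0.42, Ppp1r1b at -0.32, Meis2 at -0.22 and Pde7b at -0.19, while Pdyn lay at 0.50, Penk, the enkephalin precursor, at 0.23 and Gucy1a1 at 0.00. The list median was -0.19 against 0.03 over all genes. Without anterior replicate 2 Foxp1 lay at -0.20, Meis2 at -0.04, Pde7b at -0.07 and Pdyn at 0.31, and without posterior replicate 3 Ppp1r1b lay at -0.20. Drd1, Drd2, Adora2a, Rarb and Tac1, which separate the classes of striatal neurons, were not in the panel. At least 10 Ppp1r1b transcripts were found in 32.5% and 36.5% of anterior and 31.4%, 23.2% and 30.5% of posterior GAD cells, so posterior replicate 3 held the smallest share. At least 10 Pdyn transcripts were found in 2.62% and 1.78% of anterior and 4.65%, 3.82% and 5.33% of posterior GAD cells. Interneuron genes lay above 0 in 11 of 12 cases with a median of 0.17, but the median went as low as 0.00 when 1 section was left out. Pvalb, the calcium buffer of fast-spiking and reticular neurons, stood at 16171 and 12630 in the anterior and 22232, 10484 and 17371 in the posterior sections, and these overlapped. Of the 13 cortical layer genes 8 lay below 0 in this gate. All 8 astrocyte genes (median -0.15) and all 9 microglia genes (-0.10) lay below 0, while all 6 oligodendrocyte genes (0.13) and 10 of 11 meningeal genes (0.18) lay above it. Whether transcripts of neighbouring cells had a part in the neuronal differences was not tested.

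In the transmitter-low gate, oligodendrocyte, meningeal, hippocampal and axon guidance genes leaned to the posterior sections. Neuronal genes of striatum and cortex leaned to the anterior ones. Dcn, which encodes the matrix proteoglycan decorin of meningeal and perivascular fibroblasts, stood at 8021 and 9613 CPM in the anterior and 12022, 11269 and 11136 in the posterior sections. Cd44, a receptor for hyaluronan, stood at 858 and 712 in the anterior and 1068, 1121 and 1144 in the posterior sections. Pcp4 stood at 6296 and 8284 in the anterior and 5127, 4814 and 5038 in the posterior sections. None of the 3 overlapped, and the anterior pair was wider apart than the posterior sections. Gjc3, a connexin of oligodendrocytes, stood at 29421 and 21223 in the anterior and 32974, 31632 and 33417 in the posterior sections. Opalin, a myelin protein, stood at 20441 and 14361 in the anterior and 22377, 19729 and 23375 in the posterior sections. The low oligodendrocyte values belonged to anterior replicate 2, and Opalin in anterior replicate 1 lay within the posterior range.

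Differences in this gate were 0.50 ± 0.15 for Cd44, 0.38 ± 0.12 for Dcn, 0.37 ± 0.17 for Gjc3, 0.33 ± 0.18 for Opalin and 0.30 ± 0.11 for Slc13a4, a sulfate transporter of the meninges. They were -0.67 ± 0.22 for Cbln1, a synaptic organiser, -0.55 ± 0.13 for Pcp4, -0.41 ± 0.13 for Prr16, -0.40 ± 0.14 for Unc13c, a vesicle-priming protein, and -0.38 ± 0.10 for 2010300C02Rik. Neither edgeR (smallest adjusted p 0.601) nor DESeq2 called any of the 293 genes. With edgeR 23 genes had an unadjusted p under 0.05 (7.85%), 8 higher (2.73%) and 15 lower (5.12%), and 75 genes did not overlap (25.6%), 33 higher (11.3%) and 42 lower (14.3%). The split was 5 higher and 18 lower by library size and 3 higher and 2 lower by number of cells. The number with an unadjusted p under 0.05 was 53 without anterior replicate 1, 7 without posterior replicate 1 and 6 without posterior replicate 4. All 6 oligodendrocyte genes lay above 0 with a median of 0.29, which ran from 0.11 to 0.53 when 1 section was left out. Of 11 meningeal genes 10 lay above 0 (median 0.25, from -0.02 to 0.52 with 1 section left out). Aldh1a2, a retinoic acid enzyme of the meninges, spanned 2410 and 6035 in the anterior sections alone. The hippocampal list had a median of 0.22 (7 of 10 above 0) and axon guidance genes one of 0.20 (9 of 10 above 0). The striatal list had a median of -0.16 and the cortical list one of -0.11, against 0.00 over all genes. Astrocyte and microglia genes had medians of -0.10 and -0.11, and endothelial genes one of 0.03.

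**Figure D4:**
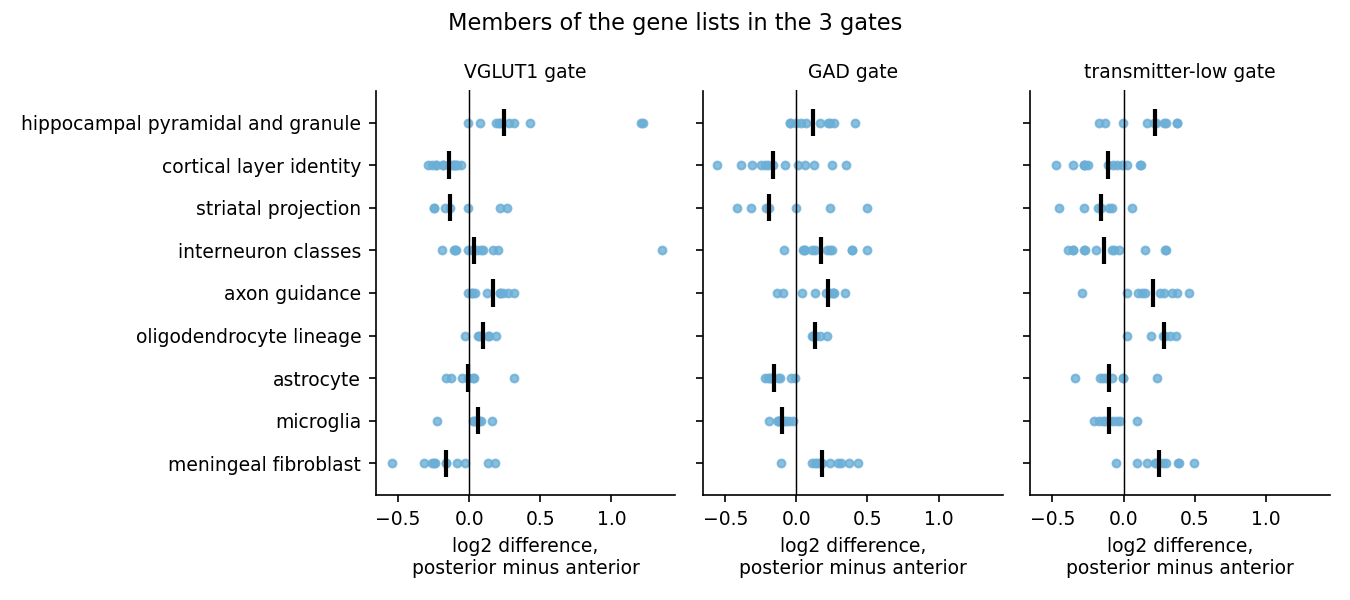
Log2 differences (posterior minus anterior) of the members of 9 gene lists in the VGLUT1, GAD and transmitter-low gates, 1 point per gene with a black bar at the list median. All 13 cortical layer genes lay below 0 in the VGLUT1 gate after TMM (5 of 13 when scaled by number of cells), where the hippocampal median was 0.25, and all 6 oligodendrocyte genes lay above 0 in the transmitter-low gate.

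Whether a position difference differed between gates was tested as an interaction, with the section as a block. No gene of 293 passed in any pair of gates with edgeR, and 20 (6.83%), 29 (9.90%) and 13 (4.44%) had an unadjusted p under 0.05 for GAD against VGLUT1, transmitter-low against VGLUT1 and transmitter-low against GAD. DESeq2 was not run on the interaction. The smallest adjusted p was 0.0580, for Cabp7 and Ror1 between the GAD and VGLUT1 gates. For Cabp7 posterior minus anterior was 1.22 in the VGLUT1 gate and -0.05 in the GAD gate, a difference of differences of -1.21 ± 0.22. Ror1 differed by 0.22 in the VGLUT1 and -0.69 in the GAD gate (-0.89 ± 0.17). Shisa6 had 1.25 against -0.07 (adjusted p 0.113), Necab2, a neuronal calcium-binding protein, 0.27 against -0.32 (0.103) and Tmem132d -0.09 against 0.47 (0.113). Calls again depended on single sections. Without posterior replicate 4 edgeR made 4 calls over the 3 pairs, for Cabp7, Shisa6 and, in both pairs with the VGLUT1 gate, Trp73. Without anterior replicate 1 it made 5, for Dcn in both pairs with the VGLUT1 gate and for Dpy19l1, Gjc3 and Opalin. Without anterior replicate 2 it made 3, for Lamp5 and, in both pairs with the transmitter-low gate, Rbp4.

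**Figure D5:**
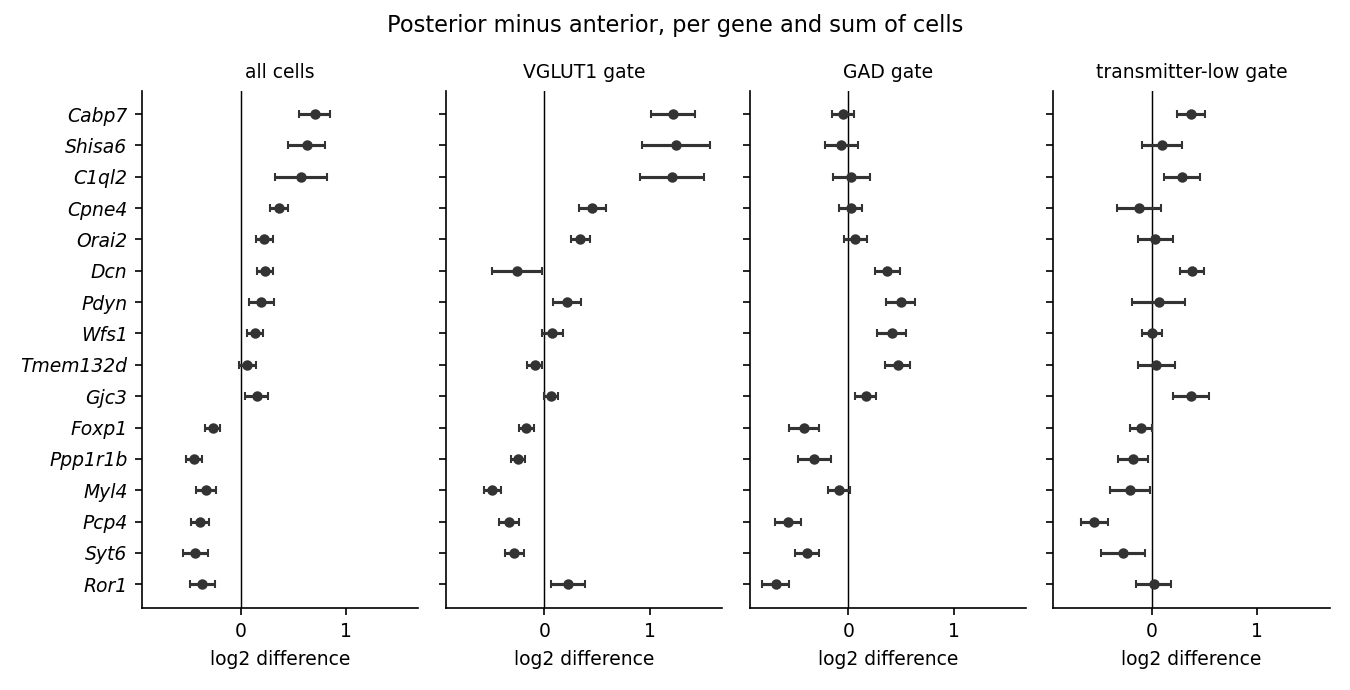
Log2 difference (posterior minus anterior, points) with its SE (bars) for 16 genes in sums over all cells and over each gate. Cabp7 lay at 1.22 in the VGLUT1 gate and -0.05 in the GAD gate, and Ror1 at 0.22 and -0.69, while Pcp4 lay below 0 in all 4 sums.

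Pcp4 was the gene that recurred, with differences of -0.39 over all cells and of -0.34, -0.57 and -0.55 in the VGLUT1, GAD and transmitter-low gates. Its positions did not overlap in any of these sums, none of which gave an adjusted p under 0.05. Genes were named for this lack of overlap, so it follows from the choice. How many other genes lacked overlap in all 4 sums was not counted. With 1 section left out the values ran from -0.43 to -0.31 over all cells, -0.47 to -0.18 in the VGLUT1 gate, -0.68 to -0.51 in the GAD gate and -0.73 to -0.33 in the transmitter-low gate. The VGLUT1 value was nearest 0 without anterior replicate 1 and the transmitter-low value without anterior replicate 2. The gates share sections and the sum over all cells contains them, so these values are not independent. In transcripts per cell, the level of Pcp4 in the remaining cells went the other way, as given above.

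The intermediate sections, at bregma -0.70 to -0.82 mm, lay nearer to the anterior ones in the VGLUT1 gate. Cabp7 stood there at 2827 and 2289 CPM, Shisa6 at 400.0 and 393, Trp73 at 14.6 and 17.2 and Myl4 at 2518 and 2531. All of these lay near the anterior values and outside the posterior range. The Cabp7-high cells made up 0.073% and 0.061% of the gate in the intermediate sections. Of the 86 genes without overlap in this gate, 81 had an intermediate mean closer to the anterior than to the posterior mean. The count was 68 of 80 over all cells, 83 of 98 in the GAD gate and 54 of 75 in the transmitter-low gate. The intermediate mean lay between the 2 other means for fewer, 58 of the 86 in the VGLUT1 gate and 59 of 80 over all cells. For the GAD and transmitter-low gates this held for 76 of 98 and 57 of 75. The same shares over all genes were not computed, so these counts have no background to be read against. The genes were chosen for their anterior and posterior values, and the intermediate sections share the slide and the replicate numbers of the anterior ones. Anterior and intermediate sections of the same number went together. Gene-wise deviations of replicate 1 from its position mean correlated at 0.83 between them (Pearson, across genes, which are not independent replicates). Each of these positions holds only replicates 1 and 2, so replicate 2 gives the same value by arithmetic. Posterior replicate 1 correlated less, at 0.37 with anterior and 0.52 with intermediate replicate 1. In the transmitter-low gate, Gjc3 stood at 34033 in intermediate replicate 1 and 21936 in replicate 2, close to the anterior sections of the same number, and position and slide cannot be told apart for posterior replicates 3 and 4.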

How the data were processed

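The authors' deposited data are raw Xenium counts, whole numbers for each gene in each cell, with a second deposited table that names the section of a cell. The counts of every cell summed to its deposited total. The submitters' processing notes name Seurat without a version. The sources used here do not give the segmentation, the decoding or a filter on cells. SCT totals, a score per the file headers, were not used. Of 297 symbols, 296 matched mouse RefSeq.

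Raw counts were summed per section over all cells and per gate. Sums were tested with edgeR 4.0.16 (R 4.3.3; filterByExpr, which kept every gene, TMM, quasi-likelihood F test, 3 residual degrees of freedom, Benjamini-Hochberg adjustment at 0.05). SE is the absolute log2 difference over the square root of F. The 4 gating genes stayed in the fits and were not counted as results within gates. The interaction used 15 sums with section as a block. Levels are CPM after TMM scaling, given with 1 value per section.

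The fits were run on simulated sums, which held no section effect shared between gates, unlike sums of real sections. At a simulated log2 difference of 0.58, 10 of 20 genes were recovered in the transmitter-low gate and 11 of 20 in the interaction. Over all cells and in the GAD gate 18 of 20 were recovered, and in the VGLUT1 gate 19 of 20. Of 144 entries of 15 gene lists, 117 were in the panel. The members, gates and lists were chosen with earlier results of these data known. The rule for named genes took those past the threshold, up to 8 in each direction, and found none. Some genes are not reported here by name. Named instead were the 8 smallest p-values per direction among genes without overlap, and others of the lists. Alternatives were DESeq2 1.42.0, scaling by library size or by number of cells, no filter on low counts, all 7 sections in 1 fit, a slide term, a replicate block, cells with at least 50 transcripts, stricter gates, leaving out cells in both gates and leaving out each section. Compared groups share only replicate number 1, so no pairing was assumed. Python 3.11.15 was used with scipy 1.17.1.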

Additional observations from a re-analysis of the deposited data

How the results depend on the processing

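Counts of genes called by edgeR, 0 in every main comparison, changed with the setting. DESeq2 called 10 genes over all cells, 21 in the VGLUT1 gate and 6 in the GAD gate. Scaling by number of cells gave 4 calls over all cells and 1 in the VGLUT1 gate, and the median difference of all genes was then 0.15 and 0.16. The VGLUT1 gate had 1 call with all 7 sections in the fit and 5 with a slide term, and the interaction 1 with library size. With 1 section left out, calls ran from 0 to 5 over all cells, 0 to 15 in the VGLUT1 gate, 0 to 2 in the GAD gate and 0 to 5 in the interaction. An anterior group of 1 section was assumed to vary like the other group. Library size, unfiltered genes, leaving out cells under 50 transcripts, stricter gates and leaving out cells in both gates gave 0 calls in each position comparison they were run on.

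The labels share replicate numbers, so a replicate block was fitted to all 7 sections. It left 1 residual degree of freedom and absorbed posterior replicates 3 and 4, so the contrast rests on replicate 1. It called 34 genes over all cells, 22 in the VGLUT1 gate, 39 in the GAD gate and 14 in the transmitter-low gate. Numbers 1 of anterior and posterior correlated at 0.37 in their deviations.

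The VGLUT1 share difference turned to -0.182 percentage points after thinning. With 1 section left out, the differences ran from 0.983 to 3.73 points (VGLUT1), from -4.78 to -0.515 (GAD) and from -2.91 to 3.88 (transmitter-low). Of 88 named gene values, 4 changed sign in some setting, and the cause was not tested. In the VGLUT1 gate Bcl11b lay at 0.082 when scaled by number of cells. Neurod6, at -0.01 in the main fit, lay at 0.00068 with DESeq2, 0.026 with library size, 0.16 with the number of cells, 0.0064 with all 7 sections, 0.17 with a slide term, 0.025 with stricter gates and 0.0049 without cells in both gates. With 1 section left out it ran from -0.10 to 0.11. Under the replicate block Neurod6 lay at 0.16. Leaving out 1 section moved Pvalb in the GAD gate from -0.048 to 0.46 and Aldh1a2 in the transmitter-low gate from -0.022 to 1.30. The transmitter-low gate was the shallowest, with 118 to 160 transcripts in its median cell, and had the widest median SE, 0.16 against 0.10 over all cells.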

Other observations

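The 4 gating genes overlapped between the positions over all cells. Slc17a6 stood at 4177 and 5727 CPM in anterior replicates 1 and 2 and at 5609, 4176 and 5315 in posterior replicates 1, 3 and 4. Slc17a7 stood at 18776 and 17831 in the anterior and 19782, 17462 and 19159 in the posterior sections. Gad1 stood at 16240 and 16355 against 14312, 17372 and 14149, and Gad2 at 8773 and 9454 against 7834, 10290 and 8116. Posterior replicate 3 had the most of both Gad genes and the least Slc17a7 among the 5 sections, and its Slc17a6 was level with that of anterior replicate 1.

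Ebf3, a transcription factor, had the most negative difference over all cells, -0.91 ± 0.31 on the log2 scale (edgeR's adjusted p 0.445). It stood at 237 and 503 in the anterior sections, 166 and 433 in intermediate replicates 1 and 2, and 162, 225 and 203 in the posterior sections. The high values were those of replicate 2 at both positions that have one. Fos, an immediate early gene, stood at 1372 and 1414 in the anterior and 1479, 1677 and 1734 in the posterior sections, with an edgeR adjusted p of 0.520.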
